A study of Mus musculus with 12 samples.

Results

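The non-clustered delta protocadherins are cell adhesion proteins encoded by single genes scattered over the genome, and 10 of them were examined here in the neocortex of mice lacking 1 copy of Chd8. The genes were chosen by name: Pcdh1, Pcdh7, Pcdh9 and Pcdh11x, which form the delta-1 subgroup, Pcdh8, Pcdh10, Pcdh17, Pcdh18 and Pcdh19, which form the delta-2 subgroup, and Pcdh20, which is usually grouped with them. These are 10 of the 46603 genes counted. The libraries came from neocortex that had been microdissected from Chd8+/+ and Chd8+/- animals on a C57Bl/6J background, at embryonic day 12.5 (E12.5, both hemispheres) and at postnatal day 5 (P5, 1 hemisphere), with n = 3 libraries in each of the 4 groups. The question was how the loss of 1 Chd8 allele, which encodes a chromatin remodelling protein, altered gene expression in the embryonic and in the early postnatal cortex. The null allele was made by deleting exon 3 with a ubiquitous β-actinCre, and the Cre transgene was then removed by crossing to C57BL/6J. It is therefore present in every cell type and from conception, and the mice are a model of constitutive haploinsufficiency. A pair of targeted embryonic stem cell clones was injected, and the clone behind the line is not given in the sources used here. Nor do these sources say which litter each library came from or how many animals went into it, so that the p-values measure the spread between these libraries.

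Protocadherins span the cell membrane and bind the same protocadherin on a neighbouring cell through their extracellular cadherin repeats. Inside the cell, several delta-2 members recruit the WAVE complex, which drives branched actin growth, and the delta-1 members carry a binding motif for protein phosphatase 1 alpha. In the developing brain they are known for roles in axon growth, sorting of neurons and synapse formation, and each member marks its own set of areas, layers and nuclei.

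Chd8 itself was checked first. In CPM (normalised counts, the usual unit for comparing libraries of different depth, with library sizes scaled by the TMM method within a stage), it stood at 236, 233 and 238 in the E12.5 Chd8+/+ libraries and at 164, 169 and 164 in the Chd8+/- libraries. At P5 the values were 148, 148 and 143 against 95.2, 97.7 and 94.1. The genotypes did not overlap at either stage, with log2 fold changes of -0.51 (edgeR adjusted p = 0.00562) and -0.61 (edgeR adjusted p = 7.21e-05). A library held between 38774591 and 54695236 counts. All 10 neocortex markers, among them Emx1 and Tbr1, passed the filter on low counts at both stages. A few libraries stood apart. The E12.5 Chd8+/- replicate 2 had the lowest summed neocortex markers (1179 CPM against 1435 to 1638) and the highest sums of 8 meningeal markers (1128 against 540 to 824) and 6 thalamic markers (404 against 215 to 236). At P5, Chd8+/- replicate 3 had 15131 unscaled CPM of CT010467.1 and 6118 of Lars2, both of which can collect ribosomal RNA reads, against 1080 to 2201 and 658 to 959 in the other 5 P5 libraries. Each group held 1 library with high counts of Xist, the transcript of the inactive X chromosome.

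The 10 genes lay on 5 chromosomes of the mouse genome GRCm38. Chromosome 14 held Pcdh8 (chr14:79766775-79771312), Pcdh17 (chr14:84443563-84537060), Pcdh20 (chr14:88464743-88471396) and Pcdh9 (chr14:93013410-93890679), between 27.5 and 40.8 Mb from Chd8 on the same chromosome. Chromosome 3 held Pcdh10 (chr3:45378398-45435623) and Pcdh18 (chr3:49743296-49757325). Chromosome X held Pcdh11x (chrX:120290259-120910619) and Pcdh19 (chrX:133582860-133688987), and Pcdh7 was at chr5:57717967-58133230. Their genomic spans ranged from 4538 bases for Pcdh8 to 877270 bases for Pcdh9. One feature was common to all 10: a single large exon carried most of the coding sequence, from 62.2% in Pcdh11x to 95.4% in Pcdh20, in the longest coding transcript of each gene. Exons of Pcdh7 overlapped 4932441J04Rik on the opposite strand over 21.1% of their length and those of Pcdh8 overlapped Gm9748 over 9.61%. Strand was not used in counting the P5 reads, so reads of those stretches could not be attributed, and the partner genes themselves had 21 to 123 and 0 to 11 counts per library.

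The promoters of 8 of the 10 genes were in the RefSeq table used here, and those of the 3 genes that DESeq2 called lower in Chd8+/- neocortex at P5 (Pcdh9, Pcdh10 and Pcdh17) are shown with that of Pcdh20, which had a contrasting base composition. Each sequence is the 250 bases upstream of the transcription start, read 5′ to 3′ on the strand of the gene, from RefSeq on GRCm38.p6. They are chr14:93890680-93890929 on the minus strand for Pcdh9, chr3:45378148-45378397 on the plus strand for Pcdh10, chr14:84443313-84443562 on the plus strand for Pcdh17 and chr14:88471397-88471646 on the minus strand for Pcdh20. Capitals mark CG dinucleotides, the sites at which DNA can be methylated.
Pcdh9: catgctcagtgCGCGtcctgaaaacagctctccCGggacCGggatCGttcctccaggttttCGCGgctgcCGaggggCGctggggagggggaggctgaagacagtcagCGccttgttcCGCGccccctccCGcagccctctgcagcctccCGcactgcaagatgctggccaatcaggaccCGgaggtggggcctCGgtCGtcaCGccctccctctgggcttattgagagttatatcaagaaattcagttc
Pcdh10: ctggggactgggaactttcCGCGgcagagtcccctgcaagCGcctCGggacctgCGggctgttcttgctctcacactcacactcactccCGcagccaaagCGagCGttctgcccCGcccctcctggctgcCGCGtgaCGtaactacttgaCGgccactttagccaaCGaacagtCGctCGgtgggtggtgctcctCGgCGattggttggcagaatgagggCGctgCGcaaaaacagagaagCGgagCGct
Pcdh17: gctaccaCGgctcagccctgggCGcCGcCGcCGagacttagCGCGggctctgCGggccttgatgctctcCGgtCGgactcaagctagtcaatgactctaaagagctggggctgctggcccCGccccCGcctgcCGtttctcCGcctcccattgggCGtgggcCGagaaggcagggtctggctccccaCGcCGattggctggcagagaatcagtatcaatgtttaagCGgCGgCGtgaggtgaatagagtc
Pcdh20: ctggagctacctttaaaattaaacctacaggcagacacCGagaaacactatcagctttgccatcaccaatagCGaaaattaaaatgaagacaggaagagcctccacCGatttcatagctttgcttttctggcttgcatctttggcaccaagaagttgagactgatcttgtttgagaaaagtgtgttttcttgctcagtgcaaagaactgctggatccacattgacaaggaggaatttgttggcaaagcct
Those of Pcdh9, Pcdh10 and Pcdh17 held 18, 22 and 21 CG dinucleotides, and that of Pcdh20 held 3. The median over 32851 promoter windows of this length was 6. Across the 8 members the number ranged from 3 in Pcdh20 to 23 in Pcdh18, with 7 in Pcdh7, 11 in Pcdh8 and 16 in Pcdh19. For Pcdh9 only a window whose start equalled that of the counted gene was kept. The windows of Pcdh7, Pcdh18 and Pcdh19 were kept although their starts differed from those of the counted genes. The letters GGGCGG, counted on both strands, occurred in the windows of Pcdh10, Pcdh17, Pcdh18 and Pcdh19, that is 4 of 8, and in 32.7% of all windows. The letters TATAAA, on both strands, occurred only in that of Pcdh8 among the 8 and in 12.4% of all, and CACGTG, which reads the same on both strands, occurred in none of the 8 and in 6.02% of all.

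Levels were compared between genes per kilobase of exon (CPM divided by the deposited exon length). In E12.5 Chd8+/+ neocortex Pcdh18 was the most abundant at 14.2 ± 0.118 CPM per kb (SD, n = 3), followed by Pcdh19 at 12.6 ± 1.01. Pcdh10 came next at 5.39 ± 0.148 and Pcdh1 at 4.78 ± 0.242. Pcdh9 (3.99 ± 0.479) and Pcdh17 (3.79 ± 0.271) overlapped between libraries, and Pcdh8 (3.30 ± 0.106) and Pcdh7 (2.02 ± 0.104) followed. The lowest pair was Pcdh11x at 0.626 ± 0.0971 and Pcdh20 at 0.620 ± 0.0511 CPM per kb, whose libraries overlapped. Among the genes tested at this stage, Pcdh18 stood at the 77.7th percentile of levels per kilobase and Pcdh20 at the 27.7th.

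By P5 the order had changed. In Chd8+/+ neocortex Pcdh1 (chr18:38185914-38212053) led at 22.2 ± 0.723 CPM per kb, ahead of Pcdh9 at 17.4 ± 1.06 in every library. Pcdh10 (14.03 ± 0.631), Pcdh8 (13.8 ± 0.592) and Pcdh17 (13.6 ± 0.332) could not be separated by their libraries. Pcdh19 (11.5 ± 0.522) and Pcdh7 (10.3 ± 0.195) came next. Pcdh18, the leading member at E12.5, had become the eighth at 5.15 ± 0.631 CPM per kb, above only Pcdh11x (3.76 ± 0.404) and Pcdh20 (3.61 ± 0.112), which again overlapped. The order in Chd8+/- neocortex was the same at E12.5, where Pcdh18 and Pcdh19 overlapped. At P5 it differed in neighbours that overlapped: Pcdh8 stood above Pcdh10 and Pcdh20 above Pcdh11x.

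**Figure D1:**
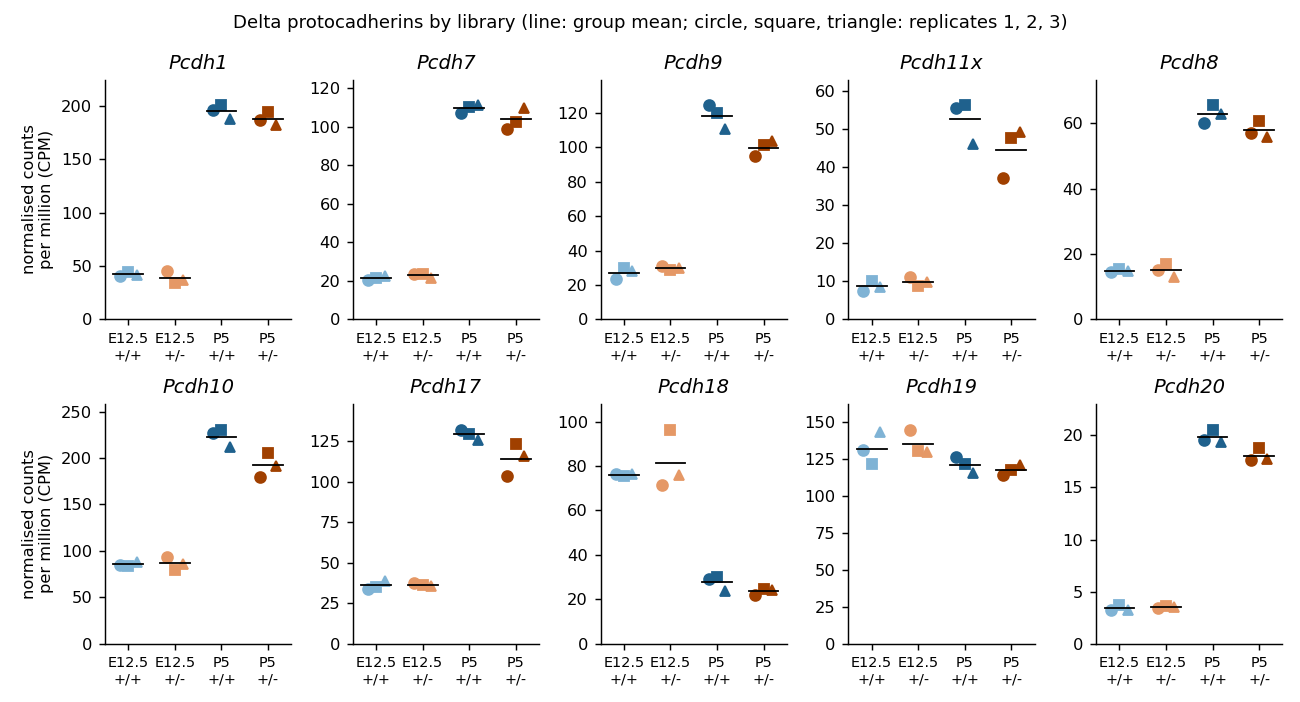
Normalised counts (CPM, vertical axis from 0) of the 10 delta protocadherins in each of the 12 libraries, by stage and genotype, with a line at each group mean and circles, squares and triangles for replicates 1, 2 and 3. In 8 of the panels the values are higher at P5, Pcdh18 is at about 76.1 CPM at E12.5 and 27.6 CPM at P5 in Chd8+/+ neocortex, each scaled within its stage, and Pcdh19 stays between 114 and 145 CPM in all 12 libraries.

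The change between the stages was tested in 1 edgeR model of all 12 libraries, in which the 4 groups shared an estimate of the spread. In Chd8+/+ neocortex 9 of the 10 genes passed an adjusted p of 0.05, 8 of them higher and 1 lower at P5. Of all 19676 genes tested in this model 83.1% passed, 41.4% higher and 41.7% lower, so the number that passed is close to that background while the share that was higher is larger. The median log2 fold change of the members was 2.15 against -0.018 for all genes. The stages also differed in the number of hemispheres taken and in the count table, and these cannot be told apart from age. Markers of several cell types moved as well in Chd8+/+ libraries. The 12 progenitor markers summed to 4711 to 5061 CPM at E12.5 and 1138 to 1311 CPM at P5, with 10 lower and 2 higher. Sums of 7 astrocyte markers went from 267.8 to 286.5 CPM at E12.5 to 1233 to 1298 CPM at P5. Those of 8 oligodendrocyte lineage markers were 122 to 134 CPM and 475 to 506 CPM. The part of these cells in the protocadherin values was not tested. In such bulk tissue, a lower count from fewer cells of a type and one from less RNA per cell cannot be told apart.

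All 4 delta-1 genes rose. Pcdh11x, which lies on the X chromosome, went from 7.50, 10.2 and 8.50 CPM in the E12.5 Chd8+/+ libraries to 55.3, 56.1 and 46.0 CPM at P5, a change of 2.64 on the log2 scale (SE 0.134, edgeR adjusted p = 9.38e-11). Pcdh7, a partner of protein phosphatase 1 alpha, rose by 2.41 on the log2 scale, from 20.2, 21.6 and 22.4 CPM to 107, 111 and 111 CPM. Pcdh1 rose by 2.26, from 40.2, 44.4 and 41.6 CPM to 197, 201 and 188 CPM, and Pcdh9, the longest of the 10 by genomic span, rose by 2.18. The stages did not overlap for any of them. Pcdh20 rose to a like extent, by 2.59 on the log2 scale, from 3.21, 3.73 and 3.28 CPM to 19.6, 20.5 and 19.4 CPM.

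The delta-2 genes were divided. Pcdh8, which draws N-cadherin from the synaptic membrane through the kinase Taok2, rose by 2.12 on the log2 scale. Pcdh17, which acts on actin in growing axons and at synapses, rose by 1.89, and Pcdh10, which is needed for the growth of striatal and thalamocortical axons, rose by 1.43. Pcdh18, a partner of the adaptor protein Dab1, fell by 1.41 on the log2 scale (SE 0.106, edgeR adjusted p = 9.90e-09). Its Chd8+/+ libraries had 76.6, 75.4 and 76.3 CPM at E12.5 and 29.3, 29.9 and 23.8 CPM at P5.

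Pcdh19, an X-linked gene whose mutations cause epilepsy with intellectual disability, was at 131, 122 and 143 CPM in E12.5 Chd8+/+ libraries and at 126, 121 and 115 CPM at P5. These overlapped, with a log2 fold change of -0.076 (95% interval -0.20 to 0.053, edgeR adjusted p = 0.25). In Chd8+/- libraries it went from 145, 130 and 130 CPM to 114, 117 and 121 CPM, which did not overlap, and fell by 0.17 on the log2 scale (edgeR adjusted p = 0.0197). That call was lost with DESeq2 (-0.13, adjusted p = 0.0998), with other size factors (edgeR adjusted p = 0.0791) and when replicate 1 of the Chd8+/- libraries was left out at E12.5 (-0.10) or at P5 (-0.15). In Chd8+/+ libraries it appeared once a trend with exon length had been removed (-0.31). The Chd8+/+ value was -0.14 with E12.5 replicate 2 left out, -0.012 with E12.5 replicate 3 left out and -0.042 with P5 replicate 3 left out.

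In Chd8+/- neocortex all 10 genes passed, against 82.9% of all genes tested, with 8 higher (41.3% of all) and 2 lower (41.6% of all) at P5. Pcdh20 (2.40), Pcdh1 (2.32), Pcdh7 (2.22) and Pcdh11x (2.20) had the largest increases on the log2 scale. Pcdh8 (1.98), Pcdh9 (1.78), Pcdh17 (1.69) and Pcdh10 (1.19) followed. Pcdh18 fell by 1.75, from 71.6, 96.4 and 76.1 CPM to 21.9, 24.6 and 24.4 CPM.

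**Figure D2:**
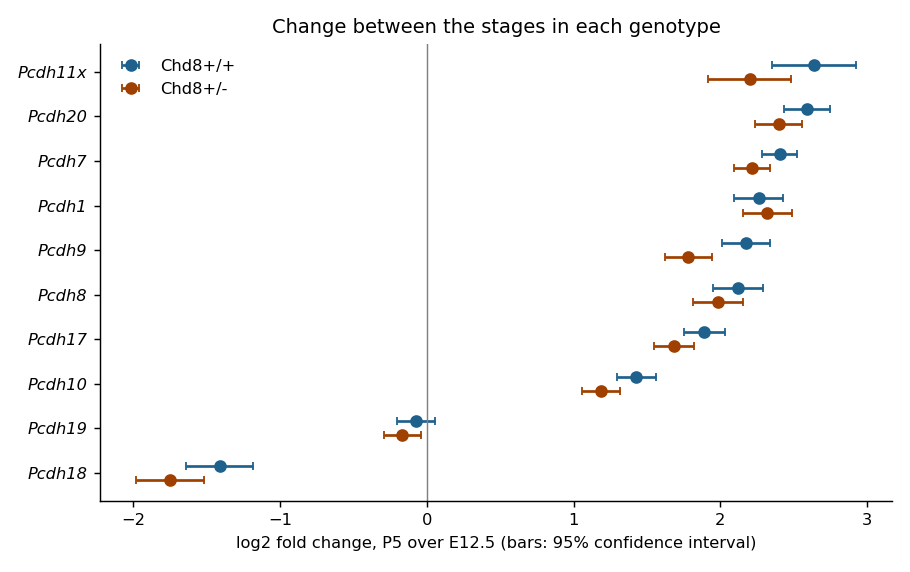
Log2 fold change from E12.5 to P5 (horizontal axis) of each delta protocadherin in Chd8+/+ and Chd8+/- neocortex from the 12-library edgeR model, with 95% confidence intervals and a line at no change. In this plot 8 genes lie between 1.19 and 2.64, Pcdh19 lies near 0 and Pcdh18 lies at -1.41 and -1.75.

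At E12.5 no delta protocadherin passed a test between the genotypes. edgeR called 0 of 10 at an adjusted p of 0.05, against 0.00553% of the 18081 genes tested. No member had an unadjusted p under 0.05 (5.15% of all genes did), and DESeq2 also called none, against 0.0102% of its genes. The groups overlapped for every member, whereas they did not overlap for 11.3% of all genes. Of the 10 log2 fold changes 9 were above 0, as were 50.2% over all genes, with a median of 0.037 against 0.00058 for all genes. Single libraries moved both: 3 to 4 of the 10 were below 0 without Chd8+/+ replicate 1 or 2 or Chd8+/- replicate 1 or 2. Leaving out Chd8+/+ replicate 1 gave a median of 0.014. With only replicate 2 or only replicate 3 of that genotype left out, the medians were 0.058 and 0.083, and leaving out Chd8+/- replicate 3 gave 0.077.

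Among the delta-1 genes at E12.5, Pcdh11x had the largest value (0.19, 95% interval -0.10 to 0.48), from 7.50, 10.2 and 8.50 CPM in Chd8+/+ to 11.1, 8.81 and 9.90 CPM in Chd8+/- libraries. Pcdh9 had 23.4, 29.6 and 28.2 CPM against 30.8, 28.5 and 29.7 CPM (0.13, 95% interval -0.060 to 0.33). Pcdh1 was the only member below 0 (-0.13, 95% interval -0.35 to 0.092), with 40.2, 44.4 and 41.6 CPM against 45.0, 34.0 and 36.6 CPM. For all of them the Chd8+/- range reached into that of Chd8+/+. Single libraries moved these values: without Chd8+/+ replicate 1 Pcdh9 was at 0.036 and Pcdh11x at 0.086, without Chd8+/+ replicate 2 they were at 0.20 and 0.31, and Pcdh1 was at -0.25 without Chd8+/- replicate 1 and at -0.043 without Chd8+/- replicate 2.

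Among the delta-2 genes and Pcdh20 at E12.5, Pcdh10 had 84.5, 84.0 and 88.3 CPM against 93.4, 80.0 and 86.0 CPM, a log2 fold change of 0.013 (95% interval -0.12 to 0.15). Pcdh17 had 33.8, 35.4 and 38.9 CPM against 37.4, 36.2 and 35.4 CPM, likewise close to 0 (0.012, 95% interval -0.13 to 0.16). Pcdh8 had 14.5, 15.5 and 14.9 CPM against 14.98, 16.9 and 13.1 CPM, and Pcdh20, which belongs to neither subgroup, had 3.21, 3.73 and 3.28 CPM against 3.40, 3.58 and 3.52 CPM. Pcdh18 had 76.6, 75.4 and 76.3 CPM against 71.6, 96.4 and 76.1 CPM. The high library among these was Chd8+/- replicate 2, the one with the highest meningeal and thalamic markers. Without it the log2 fold change of Pcdh18 went from 0.096 to -0.042, and the part of those cells in its level was not tested.

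At P5 each of the 10 genes was lower in Chd8+/- than in Chd8+/+ neocortex, by log2 fold changes between -0.24 and -0.040. The median was -0.16, whereas the median of all 18666 genes tested was 0.0017 and 49.6% of them were lower. edgeR called 0 of the 10 at an adjusted p of 0.05, against 0.00536% of all genes. At an unadjusted p under 0.05, 7 of the 10 were lower, against 9.77% of all genes in that direction. DESeq2 called 3 of the 10 lower at an adjusted p of 0.05, Pcdh9, Pcdh10 and Pcdh17, against 3.57% of the genes to which it gave an adjusted p. The groups did not overlap, with all Chd8+/- libraries lower, for 4 of the 10, against 12.2% of all genes.

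**Figure D3:**
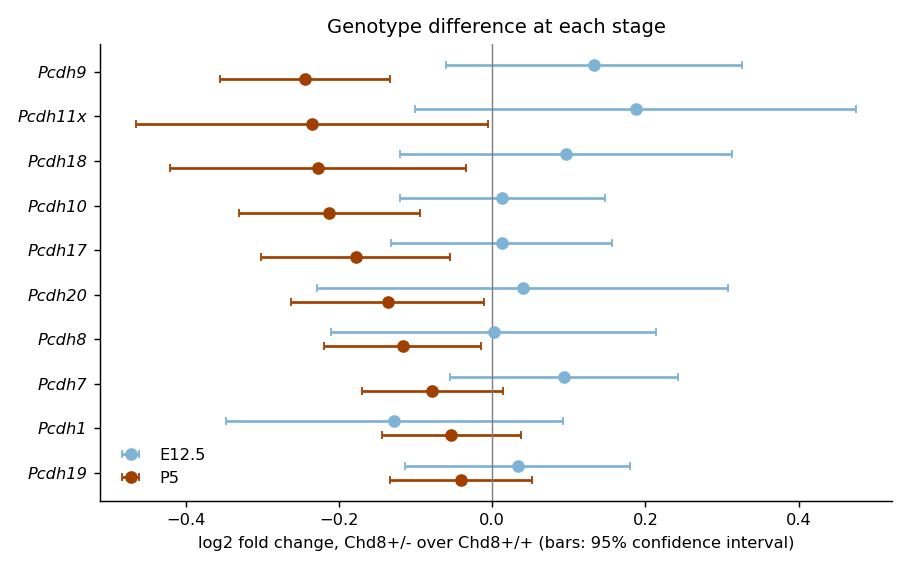
Log2 fold change of Chd8+/- over Chd8+/+ neocortex (horizontal axis) for each delta protocadherin at E12.5 and P5 from edgeR, with 95% confidence intervals and a line at no difference. The E12.5 values spread around 0 from -0.13 to 0.19, and all 10 P5 values lie below 0, with 7 intervals that do not reach it.

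Of the delta-1 genes at P5, Pcdh9 had the largest difference. Its Chd8+/+ libraries had 124, 120 and 110 CPM and its Chd8+/- libraries 94.7, 101 and 104 CPM, so that every mutant library was below every control library. The log2 fold change was -0.24 (SE 0.050, 95% interval -0.36 to -0.13), a change of -15.6% in level. The edgeR adjusted p was 0.0973 and the DESeq2 adjusted p was 0.00136. In edgeR with an offset for genomic span, Pcdh9 was at -0.127 (adjusted p = 0.212) and Pcdh11x at -0.131. Pcdh11x had 55.3, 56.1 and 46.0 CPM against 37.0, 47.5 and 49.2 CPM. Its fold change was as large (-0.24, SE 0.104, edgeR adjusted p = 0.272), but the groups overlapped, with Chd8+/- replicate 1 well below the other libraries, and without that library it was -0.12.

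The other delta-1 genes had smaller differences at P5. Pcdh7 had 107, 111 and 111 CPM in Chd8+/+ and 99.2, 103 and 110 CPM in Chd8+/- libraries, which overlapped (-0.078, 95% interval -0.17 to 0.014). Pcdh1, the most abundant member per kilobase at this stage, had 197, 201 and 188 CPM against 187, 195 and 183 CPM (-0.053, 95% interval -0.14 to 0.037). Both signs turned in a fit with an offset for gene size, to 0.0032 for Pcdh1 with exon length and to 0.017 for Pcdh7 with genomic span. Single libraries moved the sizes as well: Pcdh1 was at -0.032 when Chd8+/+ replicate 2 was left out and at -0.024 when Chd8+/- replicate 3 was, and Pcdh7 was at -0.044 when Chd8+/- replicate 1 was.

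Of the delta-2 genes at P5, the actin regulators Pcdh10 and Pcdh17 had groups that did not overlap. Pcdh10 had 227, 230 and 211 CPM in control and 180, 205 and 192 CPM in mutant libraries. Its log2 fold change was -0.21 (SE 0.053, 95% interval -0.33 to -0.095), a change of -13.7% in level, with an edgeR adjusted p of 0.116 and a DESeq2 adjusted p of 0.00527. Pcdh17 had 132, 130 and 126 CPM against 104, 123 and 116 CPM, the lowest being Chd8+/- replicate 1. Its log2 fold change was -0.18 (SE 0.056, 95% interval -0.30 to -0.055), with an edgeR adjusted p of 0.154 and a DESeq2 adjusted p of 0.0426. Without that lowest library the log2 fold change was -0.11, and without Chd8+/- replicate 2 it was -0.24, with an edgeR adjusted p of 0.0461. In edgeR with an offset for exon length, Pcdh10 was at -0.13 and Pcdh17 at -0.12.

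Pcdh18 had 29.3, 29.9 and 23.8 CPM in Chd8+/+ and 21.9, 24.6 and 24.4 CPM in Chd8+/- libraries. Here the low control library, replicate 3, lay within the mutant range (-0.23, 95% interval -0.42 to -0.035, edgeR adjusted p = 0.218). Pcdh8 had 60.2, 65.5 and 62.9 CPM against 57.2, 60.8 and 55.9 CPM, with 1 mutant library above the lowest control (-0.12, 95% interval -0.22 to -0.014, edgeR adjusted p = 0.23). Pcdh20, outside the delta-2 subgroup, had 19.6, 20.5 and 19.4 CPM against 17.6, 18.8 and 17.8 CPM, which did not overlap (-0.14, 95% interval -0.26 to -0.010, edgeR adjusted p = 0.251). Pcdh19 had 126, 121 and 115 CPM against 114, 117 and 121 CPM, which overlapped (-0.040, 95% interval -0.13 to 0.052). Its difference was -0.0087 and -0.069 when the first or the third control library was left out, and -0.019 when the first mutant one was.

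Most members were lowest in the same mutant library, but the share of all genes lowest there was not counted. Relative to the Chd8+/+ mean, the median log2 deviation of the 10 genes was -0.24 in P5 Chd8+/- replicate 1, -0.087 in replicate 2 and -0.16 in replicate 3. Replicate 1 was the lowest of its group for 8 of the 10 genes and is the Chd8+/- library with high Xist counts. Among the Chd8+/+ libraries the medians were 0.028, 0.044 and -0.061, with replicate 3 the lowest for 8 of the 10. The value of 0.028 belongs to replicate 1, the Chd8+/+ library with high Xist counts. Without Chd8+/- replicate 1 the median log2 fold change was -0.11 and all 10 genes remained lower. It was likewise -0.11 without both P5 libraries with high Xist counts, a fit chosen after seeing the data. The planned fit with a term for those libraries, which kept every P5 library, gave a median of -0.16 with all 10 lower. Without Chd8+/- replicate 3, the library with many CT010467.1 counts, all 10 were lower with a median of -0.15.

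**Figure D4:**
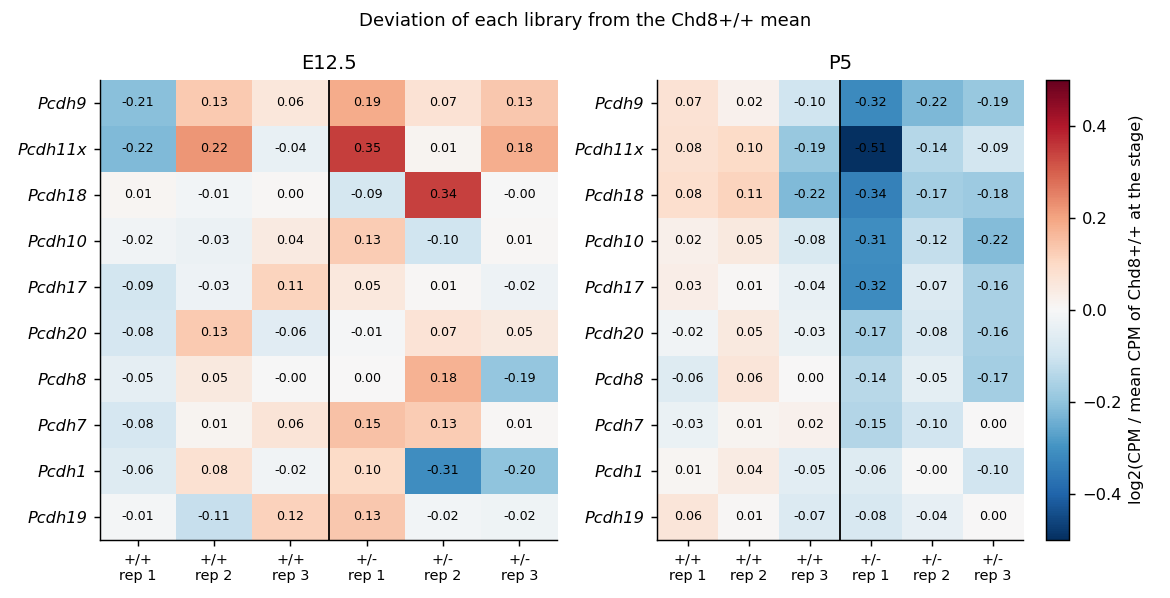
Log2 ratio of each library's CPM to the mean of the Chd8+/+ libraries of its stage, for the 10 delta protocadherins (rows) and 6 libraries per stage (columns; a line parts the genotypes), coloured blue below and red above 0. At P5 the 3 Chd8+/- columns are mostly blue with medians of -0.24, -0.087 and -0.16, while the E12.5 Chd8+/- columns have medians of 0.11, 0.041 and 0.0025.

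The number of members called at P5 depended on the tool, the filter and single libraries. All member calls given here were lower, whereas the shares of all genes beside them count calls in either direction. edgeR on all genes with at least 1 count called 4, Pcdh9, Pcdh10, Pcdh17 and Pcdh11x, against 3.18% of all genes. With the default filter on low counts and without Chd8+/- replicate 2, edgeR called Pcdh10 and Pcdh17, against 1.72% of all genes. The 3 DESeq2 calls became 0 without Chd8+/+ replicate 1 and 1 (Pcdh9) without Chd8+/+ replicate 2, against 0.492% and 1.01% of all genes. Without Chd8+/+ replicate 3 there were 4 (4.62% of all genes), without Chd8+/- replicate 1 or 3 there were 2 (1.66% and 2.58%), and without Chd8+/- replicate 2 there were 3 (6.17%). With an offset for the trend with exon length DESeq2 called Pcdh9 only (2.09% of all genes), and with one for genomic span Pcdh10 only (1.75%). Under these offsets in edgeR, 8 of the 10 stayed lower, with medians of -0.11 and -0.13.

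**Figure D5:**
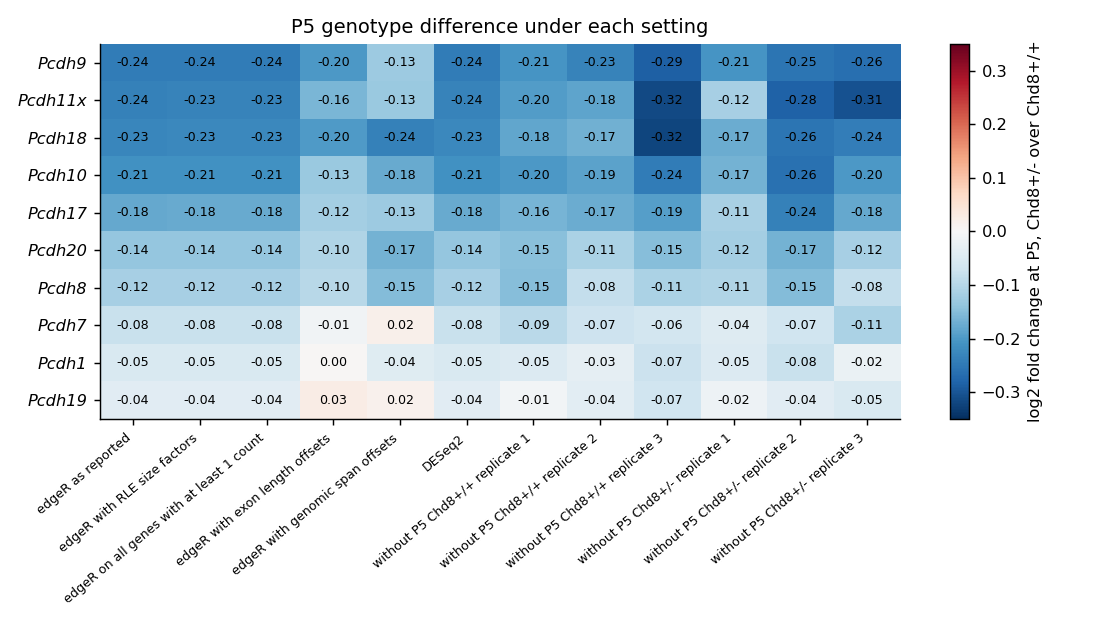
Log2 fold change of Chd8+/- over Chd8+/+ neocortex at P5 for each delta protocadherin (rows) under 12 settings (columns), which are edgeR as reported, other scalings, filters and offsets, DESeq2, and each library left out. Pcdh9 ranges from -0.29 to -0.13 and Pcdh10 from -0.26 to -0.13, and values above 0 occur only for Pcdh1, Pcdh7 and Pcdh19 under the length or span offsets.

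Some markers of neighbouring tissues and other cell types also differed between the genotypes at P5. All 10 markers of striatal medium spiny neurons were lower in Chd8+/- libraries, with sums of 269 to 338 CPM against 376 to 406 CPM, and 9 of them had groups that did not overlap, against 12.2% of all genes in that direction. All 8 choroid plexus markers were lower, with sums of 322 to 381 CPM against 439 to 567 CPM and 7 that did not overlap. All 6 thalamic markers were lower, with a median of -0.34. In edgeR 3 of them had an unadjusted p under 0.05, against 9.77% of all genes in that direction. The groups overlapped for each of the 6, and DESeq2 called none of the 5 to which it gave an adjusted p. The thalamic sums were 97.3 to 104.5 CPM in Chd8+/- libraries against 104.8, 109 and 136 CPM in Chd8+/+, the highest being replicate 1. Sums of 10 GABAergic interneuron markers were 605 to 684 CPM against 700.5 to 718 CPM, and those of 8 endothelial markers were 209 to 229 CPM against 230 to 260 CPM, with 3 genes of each list that did not overlap. None of these markers was at 0 in any P5 library. Of 12 radial glia and progenitor markers 10 were lower, 3 of them without overlap, and 1 was higher without overlap, while their sums overlapped (1170 to 1233 against 1138 to 1311 CPM). Of 8 meningeal markers 6 were higher and 2 lower, the latter without overlap. Of 8 oligodendrocyte lineage markers 4 were higher and 4 lower, and 1 of the lower ones did not overlap. That gene, Pdgfra, is in both of these lists and is also 1 of the 2 meningeal ones. Of 5 erythrocyte markers tested 4 were lower, 2 of them without overlap, and 1 was higher without overlap. The groups overlapped for all of 7 astrocyte and 8 microglia markers. The sums of the 10 neocortex markers overlapped, at 1052 to 1099 CPM against 1058 to 1141 CPM, while 2 of the 10 had groups that did not overlap, lower in Chd8+/-, and 2 were called lower by DESeq2. The lowest striatal sum was in Chd8+/- replicate 1, which was also the lowest for 8 delta protocadherins. The part of these tissues in the protocadherin values was not tested.

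Whether the genotype difference itself changed between the stages was tested with an interaction term over all 12 libraries. edgeR called 0 of the 10 at an adjusted p of 0.05, as it did of all 19676 genes (0%), and DESeq2 also called none, against 0.0245% of its genes. The term was below 0 for 9 of the 10 genes, with a median of -0.20 against -0.019 for all genes, of which 54.2% were below 0. At an unadjusted p under 0.05 there were 6 members, all below 0, against 6.87% of all genes in that direction. They were Pcdh11x (-0.44), Pcdh9 (-0.40), Pcdh18 (-0.34), Pcdh10 (-0.24), Pcdh17 (-0.21) and Pcdh7 (-0.19). With E12.5 Chd8+/+ replicate 1 left out Pcdh17 was at -0.13 and Pcdh7 at -0.12, and with E12.5 Chd8+/- replicate 2 left out Pcdh18 was at -0.19. Pcdh9 had the smallest p of these, with an SE of 0.104 and an edgeR adjusted p of 0.362. The absence of member calls at E12.5 and the DESeq2 calls at P5 therefore do not establish a difference between the stages.

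The proteins that act with delta protocadherins were read from a list of 34 genes, of which 33 were tested. None was called at E12.5 by edgeR or DESeq2. Among the smallest p-values there were those of Evl, an Ena/VASP actin regulator (0.096, edgeR adjusted p = 0.942), and Taok2 (-0.085, edgeR adjusted p = 0.942). At P5, 22 of the 33 lay below 0 and 11 above, and their median was -0.039. edgeR called none, with 7 lower and 4 higher at an unadjusted p under 0.05, against 9.77% lower and 8% higher of all genes. DESeq2 called 3 lower and 1 higher of the 32 to which it gave an adjusted p, against 3.57% and 1.71% of all genes.

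Those called by DESeq2 at P5 were Cdh2, Ctnnb1, Wasf3 and Brk1. Cdh2, the N-cadherin that Pcdh8 and Pcdh19 bind, was at 233 CPM in Chd8+/+ and 204 CPM in Chd8+/- neocortex on average (-0.19, SE 0.039, DESeq2 adjusted p = 0.00136). Ctnnb1, the β-catenin that links cadherins to the cytoskeleton, was at 780 CPM against 698 CPM (-0.16, DESeq2 adjusted p = 0.0162). Of the WAVE complex, 8 of 11 subunits were lower with a median of -0.090. Wasf3 was called lower (-0.16, DESeq2 adjusted p = 0.0338), and Brk1, its smallest subunit, was called higher (0.19, DESeq2 adjusted p = 0.0331). Nckap1, the subunit that Pcdh10 binds, was at -0.090 with an edgeR adjusted p of 0.279. The 4 listed genes of Ena/VASP actin regulators and their partners had a median of 0.0058, and the 6 tested genes of Pcdh10 turnover one of 0.0080.

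A pair of related families was used for comparison at P5. The clustered protocadherins, which lie side by side in gene clusters and give neurons their surface identity, were lower for 54 of 57 genes tested, with a median of -0.25. DESeq2 called 11 lower of the 45 to which it gave an adjusted p, against 3.57% of all genes. Several of these genes share exons or similar sequence, and how their reads were split was not examined. The classical and type II cadherins were lower for 17 of 19, with a median of -0.14, and DESeq2 called 5 of the 17 it tested lower, against the same 3.57%. The delta protocadherin median of -0.16 lay between them, and no difference between the families was tested. At E12.5 the medians of the clustered protocadherins and of the cadherins were 0.021 and 0.087.

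The position of the genes was also compared. Between Pcdh8 and Pcdh9 on chromosome 14, over 14.1 Mb, 5 other genes were tested at P5, of which 2 lay below 0, and their median was 0.037 on the log2 scale. The 4 delta protocadherins in that stretch had values of -0.12 (Pcdh8), -0.18 (Pcdh17), -0.14 (Pcdh20) and -0.24 (Pcdh9). Between Pcdh10 and Pcdh18 on chromosome 3, all 4 other genes tested were lower, with a median of -0.18, beside -0.21 and -0.23 for the pair of protocadherins. At E12.5 the 3 genes tested there were lower too, with a median of -0.29, beside 0.013 for Pcdh10 and 0.096 for Pcdh18. Between Pcdh11x and Pcdh19 on chromosome X, all 3 other genes tested at P5 were lower, with a median of -0.18. The protocadherins at the ends of that stretch had -0.24 (Pcdh11x) and -0.040 (Pcdh19), and at E12.5 the other 5 genes had a median of 0.039.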

How the data were processed

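Poly-A RNA libraries made with dUTP were sequenced as read pairs from 12 neocortex samples. Per the submitters' processing notes and the methods, the authors trimmed reads with Trim Galore 0.4.1, aligned them to GRCm38 with TopHat2 2.1.0 and counted them with FeatureCounts 1.5.0 on Ensembl 82 genes. The deposited unit is the raw count per gene and sequencing run, with no normalization, and exon lengths (another measure) were deposited beside the counts. The counting command kept with the P5 table sets no strand; that of E12.5 is not given in the sources used here. Each library's 2 runs were summed, as their chi-squared statistics were 1.17 to 1.51 per degree of freedom. Gene symbols were matched for 46005 of 46603 identifiers.

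Genotypes were compared within a stage, and stages and the interaction in a model of all 12 libraries, with edgeR 4.0.16 (R 4.3.3) using TMM, filterByExpr, the quasi-likelihood test and p-values adjusted over all genes by Benjamini-Hochberg at 0.05. Depth was 38774591 to 54695236 counts, and the biological coefficient of variation was 9.18% at E12.5 and 7.42% at P5. Standard errors and 95% intervals come from that model. Printed CPM use TMM within a stage, so CPM set side by side across stages are on separate scalings; tests and overlap between stages use TMM over all 12 libraries. Alternatives were DESeq2 1.42.0, RLE scaling, all genes with at least 1 count, offsets for exon length or genomic span (loess, span 0.5), all 12 libraries in 1 model, a term for libraries with high Xist counts, a block for the replicate number, and fits that leave out 1 library. DESeq2 with offsets or without a library, and edgeR without the libraries with high Xist counts, were chosen after seeing the data. The members, gene lists and tests were chosen with earlier results of these data known. The rule for named genes was all 10 members, Chd8, and of partner genes those called in a genotype comparison by either tool or else the 3 with the smallest p, with Nckap1 added after its values were seen. One partner gene that the rule names is not reported here. Other gene families are given as counts and medians. Marker lists cover 12 cell types or tissues. Coding exons are from GENCODE M21. Tables and figures used Python 3.11.15, pandas 2.3.3 and matplotlib 3.10.9.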

Additional observations from a re-analysis of the deposited data

How the results depend on the processing

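At E12.5 the number of members called stayed at 0 in every setting run, and the number below 0, 1 as reported, was 2 on all genes with at least 1 count, 2 with exon length offsets, 2 with the replicate block and 1 to 4 with single libraries left out. The log2 fold change of Pcdh8, 0.0019 as reported, was -0.0045 on all genes with at least 1 count, -0.00037 with exon length offsets and -0.0048 with the block. With single libraries left out it ran from -0.093 to 0.092. Likewise, signs turned within the ranges of Pcdh10 (-0.045 to 0.068), Pcdh17 (-0.033 to 0.071), Pcdh18 (-0.042 to 0.18), Pcdh19 (-0.020 to 0.095) and Pcdh20 (-0.0030 to 0.11).

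At P5 the number called, 0 as reported, was 3 with DESeq2, 4 on all genes with at least 1 count and 0 to 2 with single libraries left out. The DESeq2 number was 1 with exon length offsets, 1 with genomic span offsets and 0 to 4 with single libraries left out. Values above 0 were 0.0032 for Pcdh1 and 0.025 for Pcdh19 with exon length offsets, and 0.017 for Pcdh7 and 0.016 for Pcdh19 with genomic span offsets. The Pcdh1 interaction, 0.059 as reported, ran from -0.015 to 0.20 with single libraries left out. The cause of these changes was not tested.

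Correlations between the deviations of same-numbered libraries were -0.31, -0.14 and -0.16 at E12.5 and 0.25, 0.11 and 0.029 at P5. Those of differently numbered libraries ran from -0.12 to 0.27 at E12.5 and from -0.23 to 0.15 at P5. Deviations from a mean of 3 libraries are tied to each other, so these values cannot settle whether the numbers pair the samples. With the replicate block 0 members were called at E12.5, at P5 and for the interaction, with medians of 0.038 and -0.16 at the stages. Depth was not limiting for the levels, since the lowest member, Pcdh20, had at least 131 counts in each library.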
